A study of Mus musculus with 5 samples.

Results

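A set of 10 genes induced by neuronal activity or by MAP kinase signaling was followed in the retina of mice with form-deprivation myopia (FDM). They were taken from the count table by their symbols, *Arc*, *Npas4*, *Btg2*, *Ier2*, *Nptx2* and *Homer1* as 6 effectors and *Dusp1*, *Dusp4*, *Dusp5* and *Dusp6* as 4 MAPK phosphatases. All 10 were present among the 33636 rows of the table, each symbol on a single row, and all 10 were among the 17432 genes tested. Retinas came from wild-type male C57BL/6J mice, an inbred laboratory strain, in which a diffuser goggle covered the right eye for 2 weeks from postnatal day (P) 28 while the left eye stayed uncovered. Tissue was taken at P42, in the light phase, the hour for each animal not being given in the sources used here. The 5 polyA RNA libraries, each from 1 retina, comprised 2 FDM eyes (FDM 1 and FDM 3) and the open fellow eyes of 3 animals (Control 1, Control 2 and Control 3). FDM 1 and Control 1 were eyes of one animal and FDM 3 and Control 3 of another, by the animal numbers of the count table and the supplement, although the title of the second FDM sample carries the number 2. Control 2 had no partner. Refraction at P42 was listed as 0.976 and 0.2745 D for the FDM samples and as 2.4455, 3.1505 and 2.465 D for the controls.

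Neuronal firing raises calcium in the cell, and calcium and growth factor signals converge on the Ras and ERK kinases and on the transcription factors CREB and SRF. Within minutes these switch on a set of genes that needs no new protein synthesis, among them *Arc*, *Npas4*, *Btg2*, *Ier2* and the phosphatase gene *Dusp1*. Dual specificity phosphatases (DUSPs) remove phosphate from MAP kinases and thereby close a negative feedback loop, so that their transcripts follow the kinase activity that they limit. In the retina, transcripts of this kind respond to light and to the image, for instance in amacrine cells, and a diffuser takes contrast away from the image.

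Sequence before the transcription start is shown for the members in which a binding motif of CREB or SRF was found, since these are the factors through which activity reaches such genes. The RefSeq promoter table (GRCm38.p6) held 6 of the 10 members, *Npas4*, *Dusp1*, *Dusp5*, *Dusp6*, *Btg2* and *Homer1*. The 250 bases before each start were searched on both strands for the cAMP response element (CRE, TGACGTCA), its half-site TGACG, which the full element contains, the AP-1 motif TGANTCA, and the CArG box bound by SRF. Matches are in capitals (a half-site on the other strand reads CGTCA), with up to 40 bases on either side, and bases in annotated exons were left out.
Dusp1: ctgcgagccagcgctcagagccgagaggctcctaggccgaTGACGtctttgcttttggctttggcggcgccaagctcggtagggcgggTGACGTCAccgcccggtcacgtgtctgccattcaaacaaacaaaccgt
Dusp5: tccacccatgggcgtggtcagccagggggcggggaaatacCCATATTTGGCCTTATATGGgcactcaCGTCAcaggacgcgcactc
Btg2: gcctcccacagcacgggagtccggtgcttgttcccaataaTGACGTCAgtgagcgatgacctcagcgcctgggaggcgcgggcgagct
Homer1: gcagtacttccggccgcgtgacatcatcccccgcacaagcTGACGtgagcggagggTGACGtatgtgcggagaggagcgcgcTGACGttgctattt
These stretches lie at chr17:26508568-26508703 (minus strand) for *Dusp1*, chr19:53529023-53529108 (plus strand) for *Dusp5*, chr1:134079274-134079361 (minus strand) for *Btg2* and chr13:93303661-93303756 (plus strand) for *Homer1*. The full CRE was found in 2 members, *Dusp1* and *Btg2*, and in 1.55% of the 32817 promoters of the table. The CArG box occurred in *Dusp5* alone of the 6, as 2 boxes side by side, and in 1.47% of all promoters. The half-site occurred in 5 members, all but *Dusp6*, and in 17.7% of promoters, and the AP-1 motif in 0 members and in 6.75% of promoters. In *Npas4* the window lay within annotated exons, and its sequence is not printed. A match here is a stretch of letters and no evidence of binding.

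Library totals ran from 40599047 to 56534931 estimated counts, and levels are given as TMM-scaled CPM, the share of a library's counts that a gene took. Control values are listed in the order Control 1, Control 2, Control 3. The tissue label was borne out by 8 rod genes, which summed to between 53654 and 67192 CPM in every library. Libraries stood apart in 3 ways. Lens genes summed to 2451 CPM in FDM 3 and to 4.41 to 40.9 CPM in the other libraries. Genes of the retinal pigment epithelium (RPE) summed to 99.4 and 90.8 CPM in FDM 1 and FDM 3, and to 103, 326 and 367 CPM in Control 1, Control 2 and Control 3. Muscle genes stood at 94.6 CPM in Control 3 and at 14.8 to 16.3 CPM elsewhere. Fewer cells of a type and less RNA per cell cannot be told apart in such bulk samples.

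The comparison of FDM with control eyes asked which transcripts follow form deprivation. All 10 members had a log2 fold change below 0 (55.6% of all genes tested did), with a median of -0.20 against -0.01 over all genes. *Arc* and *Dusp4* passed the unadjusted threshold of p under 0.05 in edgeR, both lower in FDM eyes, so that 2 of the 10 members were called, where 1.16% of the 17432 genes were called lower and 1.61% in either direction. After Benjamini-Hochberg adjustment over all genes, 0 genes of the table passed in edgeR (281 did before it), and 3 did in DESeq2, none of them a member. Both FDM libraries lay below all 3 controls for 4 members, *Arc*, *Dusp4*, *Dusp6* and *Btg2* (6.67% of all genes tested). With 2 libraries against 3, these p-values rest on the spread between very few eyes. The members, and the lists below, were chosen with earlier results of these data known. Their shares beside those of all genes are therefore a description and no independent comparison.

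**Figure D1:**
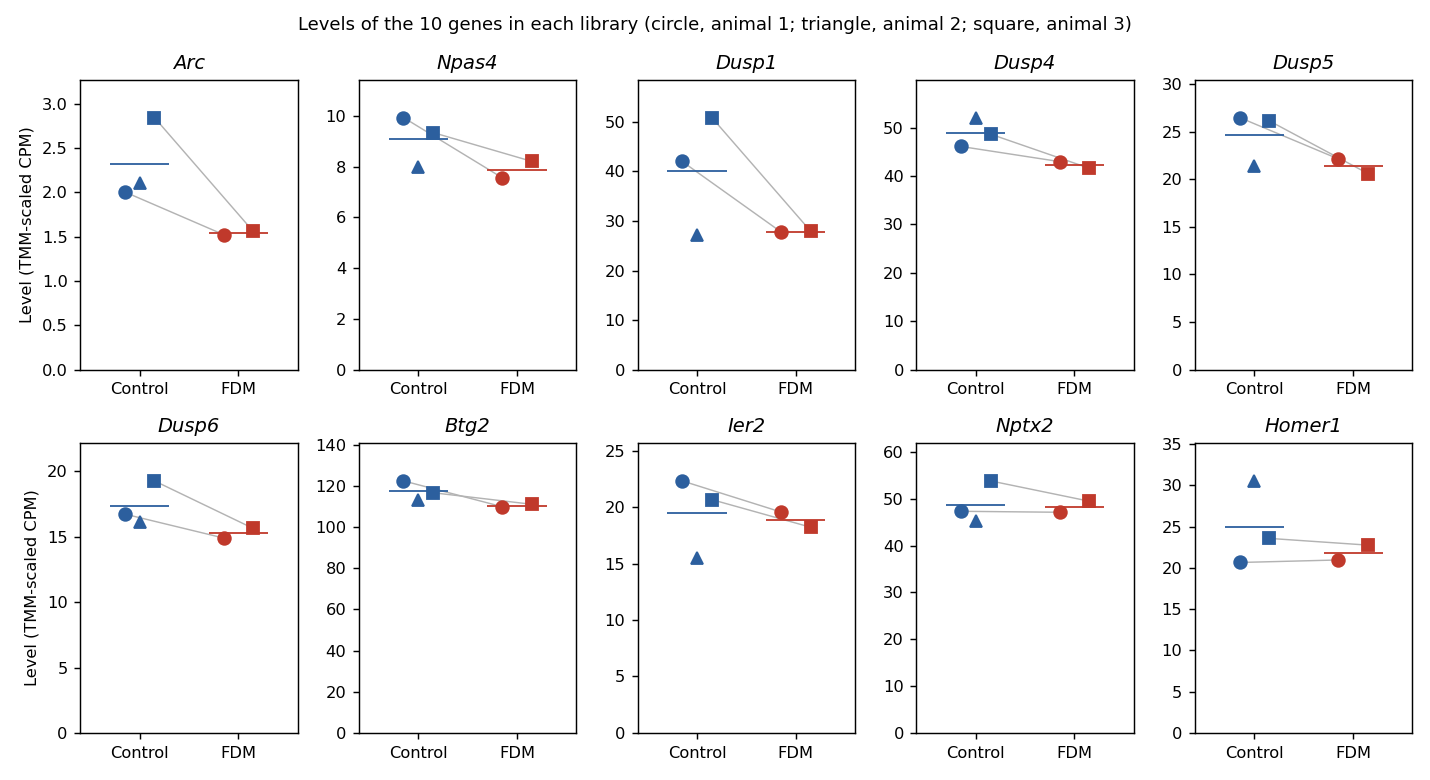
Level of each gene in CPM (vertical axes, from 0) in the control (blue) and FDM (red) libraries, with 1 symbol shape per animal, grey lines joining the eyes of one animal, and horizontal bars for group means. The FDM libraries sit close together in every panel, below all controls for *Arc*, *Dusp4*, *Dusp6* and *Btg2*, while Control 2 (triangle) is the lowest library for *Dusp1* at 27.1 CPM.

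*Dusp1* (ENSMUSG00000024190, chromosome 17 of GRCm38, 26505590 to 26562128) encodes the nuclear phosphatase MKP-1, which acts on ERK, JNK and p38. The FDM libraries held 27.8 and 28.0 CPM and the controls 42.03, 27.1 and 50.9 CPM. FDM 1 and FDM 3 were nearly equal, 2 controls lay well above them, and Control 2 was level with them, so that the groups overlapped. Means were 27.9 ± 0.119 CPM (SD, n = 2) under deprivation and 40.02 ± 12.0 CPM (SD, n = 3) without it, a log2 fold change of -0.52 ± 0.23 (SE) that missed the threshold (unadjusted p = 0.0607, edgeR). It passed in DESeq2 (unadjusted p = 0.0219) and in edgeR without a count filter (unadjusted p = 0.0250). Without Control 2 the log2 fold change was -0.73, with an unadjusted p of 2.74e-04 in edgeR (adjusted p = 0.998). In that fit 5 members passed, *Arc*, *Npas4*, *Dusp1*, *Dusp4* and *Dusp5*, all of them lower in FDM eyes (1.12% of all genes were called lower).

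*Dusp4* (ENSMUSG00000031530, chromosome 8, 34807297 to 34819894), whose product MKP-2 is likewise nuclear, reached 43.0 and 41.6 CPM in the deprived eyes and 46.1, 52.1 and 48.7 CPM in the open eyes. Both FDM libraries were below every control, and, unlike for *Dusp1*, Control 2 was the highest. The difference of -0.21 ± 0.09 (log2, SE) passed before adjustment (unadjusted p = 0.0441, edgeR) and not after it (adjusted p = 1.0). As a change in level it was -13.6%, with a 95% interval from -25.03% to -0.503%. The call was narrow: p was 0.0519 with RLE factors and 0.0506 in DESeq2, and leaving out FDM 1, FDM 3 or Control 3 gave unadjusted p of 0.157, 0.247 and 0.0958 in edgeR.

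*Dusp5* (ENSMUSG00000034765, chromosome 19, 53529109 to 53542431) encodes a nuclear phosphatase specific for ERK. Its levels were 22.1 and 20.6 CPM in the FDM libraries and 26.5, 21.5 and 26.2 CPM in the controls. Controls 1 and 3 were above both FDM libraries and Control 2 lay between the FDM libraries. At -0.21 ± 0.11 (log2, SE) the difference did not pass (unadjusted p = 0.109, edgeR), and its 95% interval ran from -0.47 to 0.06. The libraries do not record strand, and an annotated antisense gene shares up to 547 bases with an exon of *Dusp5*. Reads within the shared bases cannot be assigned to one gene or the other. *Dusp5* has 2473 bases of exon. *Dusp6* (ENSMUSG00000019960, chromosome 10, 99263231 to 99267489) encodes the cytoplasmic ERK phosphatase MKP-3. Deprived eyes held 14.9 and 15.6 CPM and open eyes 16.7, 16.1 and 19.3 CPM. The groups did not overlap, yet the gap between FDM 3 and Control 2 was small, and the difference of -0.19 ± 0.11 (log2, SE) did not pass (unadjusted p = 0.132, edgeR; interval -0.44 to 0.07).

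*Arc* (ENSMUSG00000022602, chromosome 15, 74669083 to 74672570) encodes a protein that moves to active synapses and promotes the removal of AMPA receptors. It was the least abundant member, with 66 and 75 estimated counts in the deprived eyes and 80, 120 and 135 in the open eyes, which is 1.52 and 1.56 CPM against 2.00, 2.10 and 2.84 CPM. Both FDM libraries lay below all controls, and Control 3 was the highest. *Arc* fell by 0.59 ± 0.21 (log2, SE) in FDM eyes, which passed before adjustment (unadjusted p = 0.0261, edgeR) but not after it (adjusted p = 1.0). As a change in level this was -33.5%, with a 95% interval from -52.8% to -6.21%. At such counts, counting alone gives a coefficient of variation of 8.61% to 12.3% per library, and the exact Poisson intervals of FDM 1 (51.0 to 84.0 counts) and Control 1 (63.4 to 99.6 counts) overlap. The call was lost without FDM 1 (unadjusted p = 0.101, edgeR), without FDM 3 (0.0905) and without Control 3 (0.0684, with a log2 fold change of -0.41).

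*Npas4* (ENSMUSG00000045903, chromosome 19, 4984355 to 4990316) encodes a transcription factor that is induced by calcium influx with particular selectivity and that builds inhibitory synapses. The deprived eyes gave 7.57 and 8.21 CPM, the open eyes 9.94, 7.98 and 9.35 CPM. Again Control 2 lay between the FDM libraries and the other controls above them. The difference of -0.20 ± 0.13 (log2, SE) did not pass (unadjusted p = 0.165, edgeR; interval -0.51 to 0.11). Without Control 2 it was -0.28 (unadjusted p = 0.0343 in edgeR). The difference was -0.13 without Control 1 (unadjusted p = 0.339, edgeR) and -0.17 without Control 3 (unadjusted p = 0.295, edgeR). Leaving out FDM 1 or FDM 3 gave -0.15 and -0.26.

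*Btg2* (ENSMUSG00000020423, chromosome 1, 134075170 to 134079120), an antiproliferative gene whose product recruits the CCR4-NOT deadenylase to mRNA, was the most abundant member and the steadiest. It ran at 109.8 and 111 CPM in the FDM libraries and at 122, 113 and 117 CPM in the controls. Although the groups did not overlap, the difference was -0.09 ± 0.08 (log2, SE) and did not pass (unadjusted p = 0.313, edgeR; interval -0.28 to 0.10). *Ier2* (ENSMUSG00000053560, chromosome 8, 84661331 to 84662852), a single-exon immediate early gene, stood at 19.6 and 18.2 CPM in the FDM libraries and 22.3, 15.5 and 20.7 CPM in the controls. Control 2 was the lowest library and Control 1 the highest, so that the controls enclosed the FDM libraries. They differed by -0.04 ± 0.16 (log2, SE) between the groups (unadjusted p = 0.792, edgeR; interval -0.41 to 0.32).

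The remaining effectors act at glutamatergic synapses, as *Arc* does. *Nptx2* (ENSMUSG00000059991, chromosome 5, 144545902 to 144557478) encodes a secreted pentraxin that clusters AMPA receptors. The controls, at 47.3, 45.2 and 53.8 CPM, enclosed FDM 1 and FDM 3, at 47.1 and 49.5 CPM. The groups differed by -0.01 ± 0.10 (log2, SE; unadjusted p = 0.892, edgeR; interval -0.25 to 0.22). *Homer1* (ENSMUSG00000007617, chromosome 13, 93299635 to 93405129) encodes a scaffold of metabotropic glutamate receptors. FDM libraries held 21.0 and 22.8 CPM and controls 20.7, 30.6 and 23.6 CPM, with Control 2 far above the rest. The difference was -0.19 ± 0.16 (log2, SE; unadjusted p = 0.273, edgeR; interval -0.57 to 0.19), and -0.01 without Control 2. The counts sum 12 annotated transcripts, so that the short, activity-induced Homer1a form could not be separated from the long constitutive ones.

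**Figure D2:**
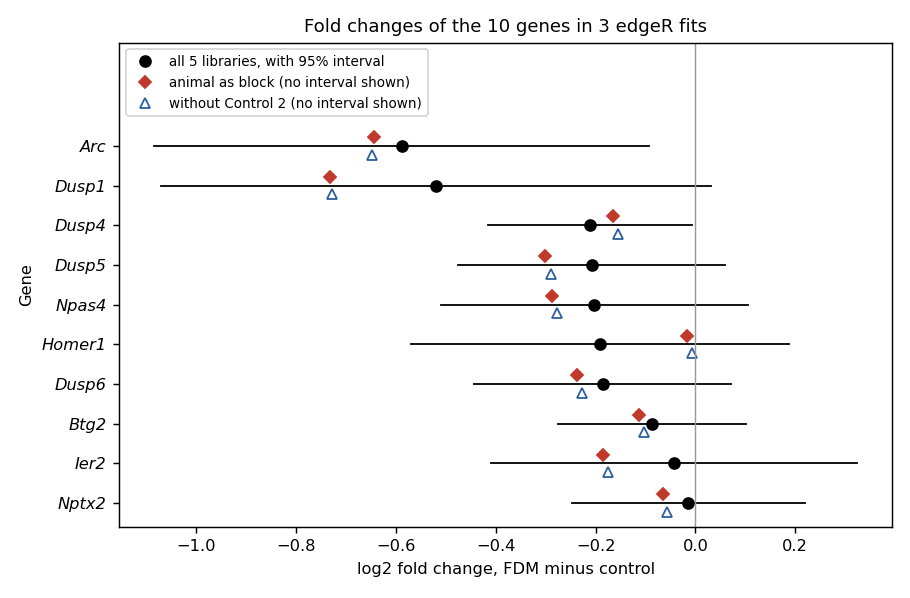
log2 fold change of FDM minus control (horizontal axis) for each gene in 3 edgeR fits, as black points with 95% intervals for all 5 libraries, red diamonds with the animal as a block and open triangles without Control 2. Only the intervals of *Arc* and *Dusp4* leave out 0, and the block and the fit without Control 2 move *Dusp1* from -0.52 to -0.73 and *Homer1* from -0.19 to -0.02 and -0.01.

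Comparing the eyes of one animal, 9 of the 10 members were lower in the FDM eye of both animals, as were 30.3% of all genes tested, the exception being *Homer1*. With RLE factors, or with library totals alone, 8 members were lower in both. *Dusp1* differed by -0.60 on the log2 scale in the first animal and by -0.86 in the third. *Arc* differed by -0.40 and -0.87, *Npas4* by -0.39 and -0.19, and *Dusp5* by -0.26 and -0.34. These 4 genes were lower by more in the third animal, except *Npas4*. For *Dusp6* the differences were -0.17 and -0.30, for *Ier2* -0.19 and -0.18, for *Btg2* -0.16 and -0.07 and for *Dusp4* -0.10 and -0.23. *Nptx2* differed by -0.01 and -0.12, and *Homer1* by 0.02 and -0.05. Thus *Dusp1* and *Arc* had the widest eye-to-eye differences among the members in both animals, and *Nptx2* and *Homer1* the narrowest in the first. Pairing by the title numbers, which sets FDM 3 against Control 2, left 5 members lower in both pairs (19.9% of all genes).

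With the animal as a block, 7 of the 10 members passed the unadjusted threshold in edgeR, all of them lower in FDM eyes, against 3.67% of all genes in that direction and 7.23% in either. These were *Arc*, *Npas4*, *Dusp1*, *Dusp4*, *Dusp5*, *Dusp6* and *Ier2*. *Dusp1* was the one member to pass adjustment over all genes, with a log2 fold change of -0.73 and an adjusted p of 0.00319 in edgeR, and 0.31% of all genes did. The adjusted p of *Dusp5* was 0.164, that of *Arc* 0.579 and those of the other 7 members between 0.561 and 0.962. In this fit the unpaired Control 2 adds nothing to the difference between eyes, and 1 residual degree of freedom remains. With the title numbers as the block, 0 members passed in edgeR (1.78% of all genes did, in the lower direction), and *Dusp1* had a log2 fold change of -0.28 (unadjusted p = 0.0555, edgeR). Over all genes 128 passed adjustment with that block, against 54 with the block by animal. Adjusted calls thus arose under either pairing.

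**Figure D3:**
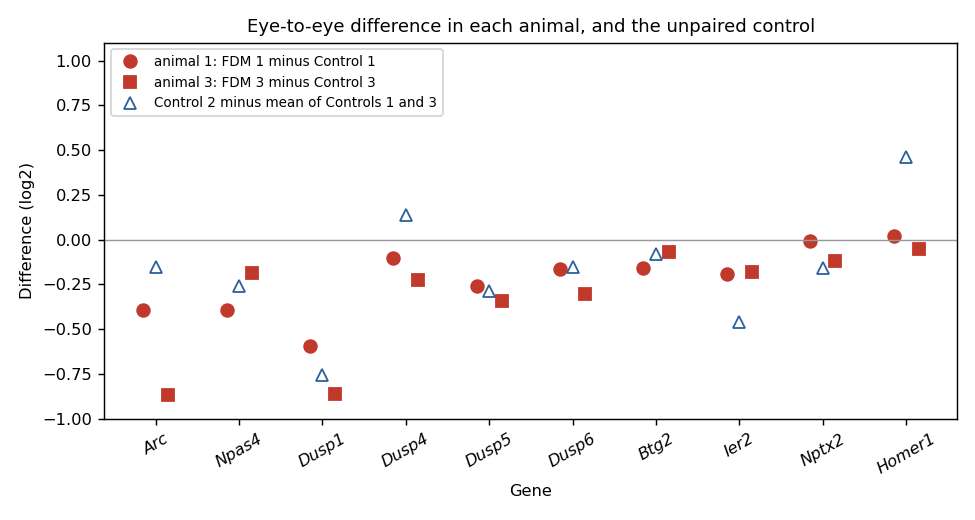
Difference on the log2 scale (vertical axis) for each gene, with red circles for FDM 1 minus Control 1, red squares for FDM 3 minus Control 3 and open triangles for Control 2 minus the mean of Control 1 and Control 3. Both red symbols lie below 0 for all genes but *Homer1*, and the triangle lies at -0.76 for *Dusp1* and at 0.46 for *Homer1*.

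The fits with and without Control 2 differed most for *Dusp1* and *Homer1*. Control 2 was the lowest of the 3 controls for 7 members (39.6% of all genes), namely *Npas4*, *Dusp1*, *Dusp5*, *Dusp6*, *Btg2*, *Ier2* and *Nptx2*. Relative to the mean of the other controls it lay at -0.76 on the log2 scale for *Dusp1*, at -0.46 for *Ier2*, at 0.14 for *Dusp4* and at 0.46 for *Homer1*. For these differences 0.5 was added to CPM before the log2. For *Dusp1* the difference is lower than for all but 0.285% of the 14731 genes with a mean of at least 50 counts and a known length. Over these genes the same difference went with exon length, with a median of -0.12 for genes under 1500 bases of exon and of 0.22 for those of 9000 bases or more. *Homer1*, the longest member with 11976 bases, falls among the latter. *Ier2*, the shortest with 1522 bases, falls among genes of 1500 to 2000 bases, whose median was -0.11, and *Dusp1*, with 3311, among genes of 3000 to 4000 bases, whose median was -0.06. The part of length in the values of these members was not tested gene by gene. With offsets for length, a setting chosen after seeing the data, *Dusp1* stood at -0.51 (log2; unadjusted p = 0.0553, edgeR), and at -0.71 with the block in addition (adjusted p = 0.00523, edgeR). Of the members, *Arc* alone was called with these offsets (unadjusted p = 0.0254, edgeR; 1.1% of all genes were called lower), *Dusp4* having a p of 0.0670. Offsets and block together called 5 members lower (2.62% of all genes), those of the block other than *Dusp4* and *Ier2*.

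The RPE genes move with the groups as well, 8 of the 14 tested being called lower in FDM eyes (1.16% of all genes were). In the first animal the RPE sums were 99.4 CPM in FDM 1 and 103 CPM in Control 1, and *Dusp1* and *Arc* differed by -0.60 and -0.40 between these eyes. In the third animal the RPE sums were 90.8 and 367 CPM, the lens genes stood at 2451 and 14.3 CPM and the muscle genes at 16.3 and 94.6 CPM, and *Arc* differed by -0.87. The part of these cells in the differences of the members was not tested in either animal. Microglial genes, all 8 with a log2 fold change below 0, summed to 34.6 and 31.3 CPM in FDM eyes and to between 35.2 and 40.7 CPM in controls. Amacrine cell markers summed to 1475 and 1522 CPM against 1520 to 1643, and ganglion cell markers to 996 and 1125 CPM against 974 to 1187, so that the groups overlapped in both. Within animals the amacrine sum was lower in the FDM eye of both, at 1475 against 1520 CPM in the first and 1522 against 1643 CPM in the third. The ganglion cell sum was 996 against 974 CPM in the first and 1125 against 1187 CPM in the third, and the part of these cells in the members' differences was not tested. Genes of the heat shock response, which handling can induce, gave 0 calls of 11 in edgeR at the unadjusted threshold (1.61% of all genes were called). Their sums were 2777 and 3208 CPM against 2739 to 3500. Of these 11 genes, 10 had a log2 fold change below 0, with a median of -0.07 and a lowest value of -0.34, and their part in the members' differences was not tested.

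Per kilobase of annotated exon, the mean level in control eyes fell in the order *Btg2* (42.8 ± 1.73 CPM per kb, SD, n = 3), *Nptx2* (19.2 ± 1.77), *Dusp4* (17.9 ± 1.095), *Ier2* (12.8 ± 2.35), *Dusp1* (12.1 ± 3.63), *Dusp5* (9.99 ± 1.14), *Dusp6* (5.55 ± 0.533), *Npas4* (2.20 ± 0.243), *Homer1* (2.08 ± 0.424) and *Arc* (0.758 ± 0.150). Over the 5 libraries the ranges of *Nptx2* and *Dusp4*, of *Ier2* and *Dusp1*, of *Dusp1* and *Dusp5*, and of *Npas4* and *Homer1* overlapped, so that these neighbors were not separated in level. The other neighbors were, on these lengths. A length here joins all annotated exons of a gene, which belong to 12 transcripts for *Homer1* and to 1 for *Btg2*. For a gene with many transcripts the level per kilobase can therefore come out too low. Among the phosphatases *Dusp4* had the highest mean per length in control eyes and *Dusp6* the lowest. Over the 5 libraries the lowest value of *Dusp4* (15.2 CPM per kb) lay below the highest of *Dusp1* (15.4). The difference between the 2 FDM eyes had a median of 0.07 on the log2 scale over the members and of 0.08 over all genes tested. The range of the 3 controls, which is wider by construction than a difference between 2 libraries, had a median of 0.31 over the members and of 0.26 over all genes.

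The other genes of the pathway were taken from lists. Among 18 tested inhibitors of ERK signaling outside the members, 1 was called lower and 0 higher, with a median log2 fold change of -0.05. This was *Spry4*, a sprouty protein that blocks growth factor receptors from activating Ras, with 14.4 and 13.3 CPM in deprived eyes and 17.5, 17.4 and 20.4 CPM in open eyes. It fell by 0.41 ± 0.11 (log2, SE; unadjusted p = 0.00697, adjusted p = 1.0, edgeR). The kinases and adaptors of the Ras and MAPK cascade gave 0 calls of 35 at the unadjusted threshold in edgeR, with log2 fold changes from -0.18 to 0.09. The gene of ERK1, *Mapk3*, stood at 33.2 CPM per kb in both groups. Upstream calcium sensors, CREB, SRF and their partners gave 0 calls of 26 (median 0.01), and the synaptic partners of Arc, Homer1 and the pentraxins 0 of 23 (median 0.01). BTG and CCR4-NOT partners gave 0 of 12, with *Btg3* at a log2 fold change of -0.44. Over all genes tested 1.61% were called in either direction and 1.16% lower. At that share 0 calls in lists of these sizes do not set them apart from other genes.

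Other activity-induced effectors had a median of -0.14, and 2 of 31 were called lower, against 1.16% of all genes. *Plk2*, a kinase that weakens overactive synapses, fell by 0.29 ± 0.11 (log2, SE; unadjusted p = 0.0282, edgeR), and *Vgf*, which encodes a secreted neuropeptide precursor, by 0.37 ± 0.15 (unadjusted p = 0.0409, edgeR). *Bdnf*, at -0.57, did not pass (unadjusted p = 0.0529, edgeR). Immediate early transcription factors, which are switched on by the same signals, had a median of -0.26, and 5 of 23 were called lower and 0 higher, namely *Fosl2*, *Egr3*, *Maff*, *Csrnp1* and *Egr4*, with log2 fold changes from -1.34 for *Egr3* to -0.38 for *Csrnp1* (1.16% of all genes were called lower). *Fosl2* stood at 6.34 and 7.71 CPM in the FDM libraries and at 9.17, 18.0 and 17.9 CPM in the controls, and *Maff* at 0.669 and 0.977 CPM against 1.13, 1.51 and 1.495 CPM. Both were highest in Control 2 and Control 3, as were the RPE sums, and the part of RPE in this list was not tested.

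**Figure D4:**
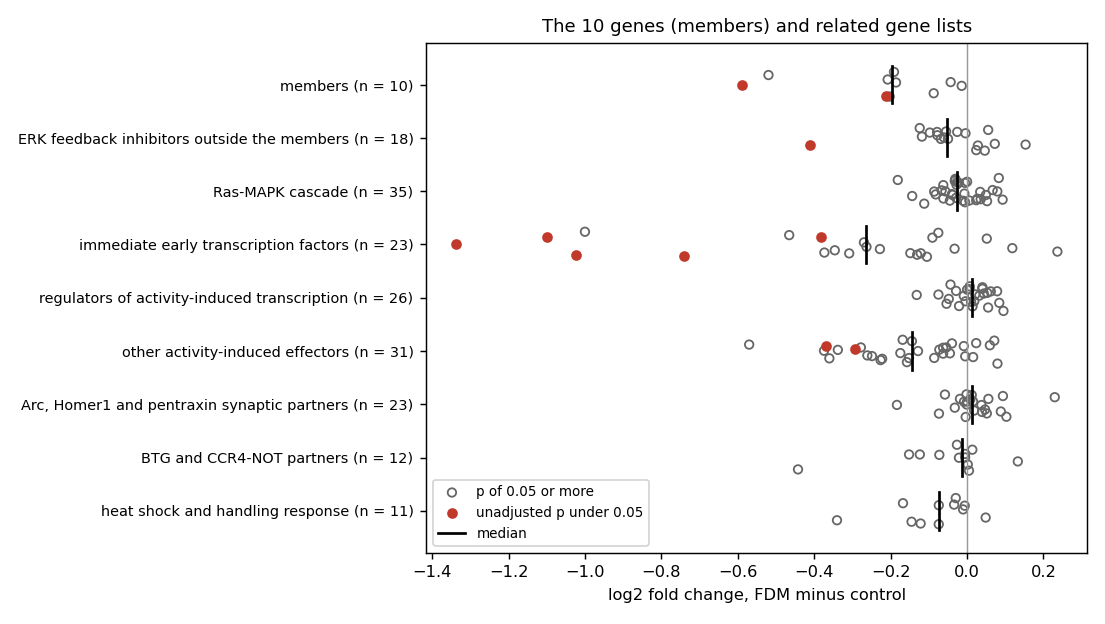
log2 fold change of FDM minus control (horizontal axis) of each tested gene in the 10 members and in 8 related lists (rows), with filled red points for genes at an unadjusted p under 0.05 in edgeR, open points for the rest and black bars for medians. Every filled point lies below 0, and the medians run from -0.26 for the immediate early transcription factors to 0.01 for the synaptic partners and the regulators of transcription.

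The genes whose pattern over the 5 libraries was most like that of a member were found by the root-mean-square (RMS) difference of log2 CPM. Before the log2, 0.5 was added to CPM, which narrows the spread of genes as low as *Arc*. Each gene was then centered on its own mean. For *Arc*, which varied by an RMS of 0.26 around its mean, the nearest of the 14731 genes were *Mchr1* at 0.06, and *Blnk*, *Spry4*, *Bag3* and *Kcns1* at 0.08 each. Of these, *Spry4* belongs to the list of ERK inhibitors. *Bag3* belongs to the heat shock list, in which it had the lowest log2 fold change (-0.34). Counts were low for *Mchr1* (58 to 117), *Blnk* (64 to 109) and *Kcns1* (37 to 70), as for *Arc* itself (66 to 135). The part of counting error in these distances was not tested. For *Dusp1*, which varied by 0.37, the nearest were Gm10221 at 0.09, Gm14760 at 0.11, *Junb*, another immediate early gene, at 0.12, *Btg3* at 0.14 and Gm12338 at 0.15. Of these, Gm14760 had only 40 to 98 counts. For *Homer1*, which varied by 0.20, *Ppp1r12a*, *Hycc2*, *A830018L16Rik*, *Selenoi* and *Cnot6l* lay at 0.01 to 0.02. Among the members, *Dusp6* was nearest to *Arc* (0.15) and *Arc* nearest to *Dusp1* (0.23), and *Homer1* was the farthest from *Dusp1* (0.47).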

How the data were processed

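RNA of 5 retinas, 2 FDM and 3 control, was sequenced by the authors as paired-end polyA libraries made without strand information. Per the submitters' processing notes they used Trimmomatic 0.39, Salmon 1.10.1 and R 4.3.1, with GRCm38. The authors deposited estimated counts per gene as whole numbers, and a normalized signal from DESeq2 in which each gene and library has its own factor. Another FDM library is not analysed here, having been excluded in the study for read duplication.

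Groups came from the sample titles. The members and lists were chosen with earlier results of these data known. Genes exceeding 10 counts in 2 or more libraries were tested in edgeR 4.0.16 (R 4.3.3) with TMM factors and the quasi-likelihood test on group alone, at an unadjusted p of 0.05, with Benjamini-Hochberg values over all genes, all tests being two-sided. Standard errors are the log2 fold change over the square root of F. The p-values treat eyes of one animal as independent, except with the animal as a block. The animal numbers pair 2 FDM eyes with controls, and deviations from the group means correlated at 0.258 for FDM 1 and Control 1 and at 0.125 for FDM 3 and Control 3 across genes (0.155 for FDM 3 and Control 2). With 2 FDM libraries the deviations of FDM 1 and FDM 3 are equal and opposite. These correlations are therefore not independent of each other and do not decide the pairing. No pair of libraries agreed within sampling noise, the lowest chi-square per degree of freedom being 12.0, and Control 2 differed most from the others of its group, at 60.9 and 42.6.

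The alternatives were DESeq2 1.42.0, limma 3.58.1 (log2 signal with pseudocounts 1 and 0.1), other factors and filters, the block, and each library left out. Exon lengths are from GENCODE M21 (GRCm38), found for 17413 of the 17432 genes. Named genes are the 10 members, list genes past the threshold or among the 3 most abundant per length of their list, and the 5 genes nearest in pattern to the 3 members of widest range. *Bdnf* was named after its value was seen. The lists also held markers of cones, bipolar, horizontal and Müller cells, blood and endothelium, in which 0 genes were called in edgeR. The scripts were tested on simulated counts. Intervals of counts cover counting error only.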

Additional observations from a re-analysis of the deposited data

How the results depend on the processing

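The count of members called was 2, *Arc* and *Dusp4*, and in DESeq2 also 2, *Arc* and *Dusp1*. Without a count filter it was 3, *Arc*, *Dusp4* and *Dusp1*. It was 1 with RLE, upper-quartile or no factors and with length offsets (added after seeing the data), 7 with the replicate block by animal, 5 with that block and length offsets, and 0 with the block by title number. Leaving out each library gave 0 to 5, with 0 without Control 3, FDM 1 or FDM 3 (a lone FDM library being assumed to vary like the controls) and 5 without Control 2. Over all genes 281 were called, against 172 in DESeq2, 498 without a count filter, 1261 with the block by animal, 995 with that block and length offsets, 439 with the block by title number, and 146 to 944 with each library left out. Without Control 1 the count was 944. Without Control 2 it was 550, of which 195 (35.5%) were lower in FDM eyes, against 202 of 281 (71.9%) with all libraries. The related lists, of 11 to 35 tested genes each, had 8 genes called, 34 with the block by animal and 27 with that block and length offsets. Leaving out each control gave 3 to 20. Over all genes tested the share called was 1.61%, and 7.23% with the block by animal, so that calls rose in general with that block. *Ier2* had a log2 fold change of 0.0228 with the block by title number and from -0.175 to 0.0663 with each library left out, above 0 without Control 1, Control 3 or FDM 3. *Nptx2* had 0.0626 with the block by title number and from -0.0570 to 0.0690 with each library left out, above 0 without Control 3 or FDM 1. The other 8 members kept a log2 fold change below 0 in all 18 alternatives, *Homer1* only just, at -0.0075 without Control 2 and -0.0162 with the block by animal. All 18 draw on the same 5 libraries, so that a shared sign is no independent support. The number of members lower in the FDM eye of both animals was 9, and 8 with RLE or no factors. Pairing by title number left 5 members lower in both pairs. The cause of these shifts was not tested. With 2 FDM libraries, the 95% intervals of all members but *Arc* and *Dusp4* included 0, that of *Dusp1* running from -1.07 to 0.03. *Arc* is limited by its counts of 66 to 135.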

Other observations

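The normalized signal carries a second readout of the members. Dividing the estimated counts by it gives a factor for each gene and library, and this factor relative to the median of its library would be 1 everywhere if a library had a single factor. How these factors were made is not given in the sources used here. For *Homer1* the relative factors of FDM 1 and FDM 3 were 0.998 and 0.933, and those of the controls, in order of number, 1.03, 1.07 and 0.968. Its highest value was 1.151 times its lowest, a wider span than in 86.3% of the 13129 genes with at least 100 counts in every library. *Dusp6* spanned 1.11 times, from 0.947 in Control 2 to 1.05 in FDM 3, with 0.962 in FDM 1. The span was 1.103 times for *Ier2*, 1.07 for *Dusp4*, 1.03 for *Dusp1* and 1.01 for *Btg2*. Of these, *Ier2*, *Dusp4* and *Btg2* have 1 annotated transcript each and *Dusp1* has 6. With the authors' factors as offsets in edgeR, *Homer1* had a log2 fold change of -0.09 in place of -0.19, and *Arc* of -0.61 in place of -0.59.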
